A study of Mus musculus with 34 samples.

Results

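The regions described here are stretches of the mouse autosomes at which a nucleosome was called in elongating spermatids of all 3 genetic backgrounds of a paired-end ATAC-seq series, and in sperm of neither background with intact Gcn5. They were chosen by the calls themselves: overlapping SV129 elongating spermatid calls on chromosomes 1 to 19 were merged into 271944 regions, and a region was kept where it shared at least 1 bp with an elongating spermatid call of both other backgrounds and no base with a sperm call of the 2 intact backgrounds. This left 3163 regions, 1.16% of the SV129 elongating spermatid regions, against 1208187 merged regions over the 12 nucleosome lists of the series. In the text below they are called the shared regions.

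The series holds 34 libraries in 12 groups, 4 stages in 3 backgrounds. The stages were a meiotic fraction (MS), round spermatids (RS) and elongating or condensing spermatids (ES), taken from testis by velocity sedimentation at 85% purity or more, and mature sperm of the cauda epididymis (Sp). The backgrounds were SV129 mice aged 8 to 12 weeks, C57BL6 GCN5+/+ mice (WT) and C57BL6 GCN5-/- mice (cKO), whose homozygous floxed alleles were removed by Stra8-CRE, a recombinase expressed from the promoter of a gene that germ cells switch on before meiosis. SV129 had 4 libraries at MS, RS and ES, which were 2 technical repeats of 2 biological replicates, and 6 at Sp, with 11 mice pooled for each collection. WT and cKO had 2 libraries in every group, for which the labels give no age.

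Gcn5, also named Kat2a, is a histone acetyltransferase that works as the catalytic subunit of the SAGA and ATAC coactivator complexes. During spermiogenesis histones become acetylated and are then largely replaced, first by transition proteins and then by protamines, and only a small part of the sperm genome keeps nucleosomes. In ATAC-seq the Tn5 transposase cuts accessible DNA, so that short fragments mark open sites and fragments long enough to wrap a histone octamer mark nucleosomes beside them. A nucleosome call thus needs cuts on both sides, and DNA with no call may be closed or simply not covered.

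Each group came as 1 list of nucleosome calls, all 150 bp wide, and 1 list of subnucleosome peaks, with no values for single libraries. There is therefore no replicate error, no test between conditions was made, and depth is unknown. The intervals given are Wilson 95% intervals; they hold counting error alone and take each region as independent of the others. The 3 ES lists held 476536 (SV129), 581954 (WT) and 534550 (cKO) calls on these chromosomes, the 2 intact sperm lists 11846 (SV129) and 7050 (WT), and the cKO sperm list 340109. Subnucleosome peaks were few at ES, between 401 and 692 a list.

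Promoter sequence was at hand for some of the shared regions and shows where a call sat relative to a gene start. The RefSeq table for GRCm38.p6 gives windows of 300 bases, 250 before and 50 after a start, for 16457 genes on these chromosomes other than 18. Some genes have several starts and windows that overlap, so that there are 20063 windows, of which 123 (0.613%) met a shared region. The 5 below are on the gene's strand, 5′ to 3′, with the bases inside the shared region in capitals. Kif1b, a kinesin that carries cargo along microtubules, lies at chr4:149307649-149307948 on the minus strand. Its call began at the promoter's downstream part and ran on into the gene. Rad17, a loader of the DNA damage checkpoint clamp, lies at chr13:100651012-100651311 on the minus strand, back to back with Taf9, a subunit of SAGA. The other 3 were picked after their values were seen, as the first of 25 shared regions that fall wholly within such a window when ordered by the number of other lists with a call. They are Mpc1 (chr17:8283537-8283836, plus strand), a subunit of the mitochondrial pyruvate carrier, Entpd1 (chr19:40612116-40612415, plus strand), an ectonucleotidase, and Dnajc13 (chr9:104262881-104263180, minus strand), an endosomal co-chaperone. The region shown for Entpd1 also has 110 bp in the window of Tctn3 (chr19:40612182-40612481, minus strand). It lies upstream of the Entpd1 start and covers that of Tctn3.
Kif1b: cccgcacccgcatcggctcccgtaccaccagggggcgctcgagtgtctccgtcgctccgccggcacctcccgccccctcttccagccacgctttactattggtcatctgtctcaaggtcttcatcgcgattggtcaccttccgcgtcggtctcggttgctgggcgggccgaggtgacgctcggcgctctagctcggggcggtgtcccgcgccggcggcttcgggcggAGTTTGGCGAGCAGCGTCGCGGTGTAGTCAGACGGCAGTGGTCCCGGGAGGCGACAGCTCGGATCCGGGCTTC
Rad17: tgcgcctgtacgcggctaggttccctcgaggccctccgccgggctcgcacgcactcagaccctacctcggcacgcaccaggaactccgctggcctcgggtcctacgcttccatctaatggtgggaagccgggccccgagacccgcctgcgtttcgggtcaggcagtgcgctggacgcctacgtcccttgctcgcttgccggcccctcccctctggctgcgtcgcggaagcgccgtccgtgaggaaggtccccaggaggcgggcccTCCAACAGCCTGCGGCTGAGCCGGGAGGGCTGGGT
Mpc1: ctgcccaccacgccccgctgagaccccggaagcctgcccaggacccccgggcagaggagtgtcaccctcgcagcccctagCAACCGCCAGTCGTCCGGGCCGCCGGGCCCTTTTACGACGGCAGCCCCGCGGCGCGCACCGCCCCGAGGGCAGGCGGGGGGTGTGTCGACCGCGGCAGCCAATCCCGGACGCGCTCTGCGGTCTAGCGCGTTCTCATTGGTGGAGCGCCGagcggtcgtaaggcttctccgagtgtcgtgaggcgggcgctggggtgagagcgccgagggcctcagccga
Entpd1: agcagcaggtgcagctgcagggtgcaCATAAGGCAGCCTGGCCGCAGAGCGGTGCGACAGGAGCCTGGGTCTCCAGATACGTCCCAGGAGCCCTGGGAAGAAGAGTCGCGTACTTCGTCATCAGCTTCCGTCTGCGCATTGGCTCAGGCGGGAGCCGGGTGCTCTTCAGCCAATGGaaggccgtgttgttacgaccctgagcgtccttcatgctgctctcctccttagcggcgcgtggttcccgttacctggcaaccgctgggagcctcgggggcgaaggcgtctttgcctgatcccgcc
Dnajc13: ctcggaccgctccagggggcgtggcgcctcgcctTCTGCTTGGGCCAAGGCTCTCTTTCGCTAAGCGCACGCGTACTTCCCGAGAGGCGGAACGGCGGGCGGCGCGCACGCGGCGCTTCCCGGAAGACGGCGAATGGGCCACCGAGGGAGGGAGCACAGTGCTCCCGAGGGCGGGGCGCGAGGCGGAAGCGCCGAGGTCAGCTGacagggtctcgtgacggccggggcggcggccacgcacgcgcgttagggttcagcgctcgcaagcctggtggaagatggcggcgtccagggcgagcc
The Kif1b window held 40 CpG dinucleotides, 9 of them among the 73 bases inside the call. The Mpc1 window held 39, 25 of them inside the 150 bp call, and the Dnajc13 window 44, 25 of them inside its region of 170 bp. GC content of the 5 windows ran from 64% at Entpd1 to 73.7% at Mpc1. GGGCGG, the GC box, was present on either strand in the windows of Kif1b, Mpc1 and Dnajc13.

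The counts behind the choice are a description, with no test. Of the 271944 SV129 ES regions, 21549 (7.92%) met a WT call and 24675 (9.07%) a cKO call. Both were met by 3703 regions (1.36%), of which 540 (14.6%) also had an intact sperm call and were set aside. Over all SV129 ES regions an intact sperm call was met by 2800 (1.03%), and over those found at ES in SV129 alone by 1410 (0.615%).

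The same rule was also applied with the lists out of place. The WT list was moved along each chromosome by 20, 50, 100, 200 or 500 kb in either direction. The cKO list was moved by the same distance the other way. The 10 moves gave between 600 and 749 regions, on average 677.3, so the lists in place gave 4.67 times as many. The mean moved count was 21.4% of the count in place. Single moves differed with distance, with 749 and 748 regions at 20 kb and 614 and 600 at 500 kb, and the mean mixes them. The overlap of SV129 with WT alone was 1.67 times its moved mean of 12904, and that of SV129 with cKO alone 1.89 times its moved mean of 13022. Regions merged from 3 or more SV129 calls stood further above the moved lists than single calls: 1246 against 163.9 on average (7.6 times), compared with 1028 against 309.8 (3.32 times) for 1 call. The regions that the moved lists gave had an SV129 RS call in 4.56% to 6.63% of cases.

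**Figure D1:**
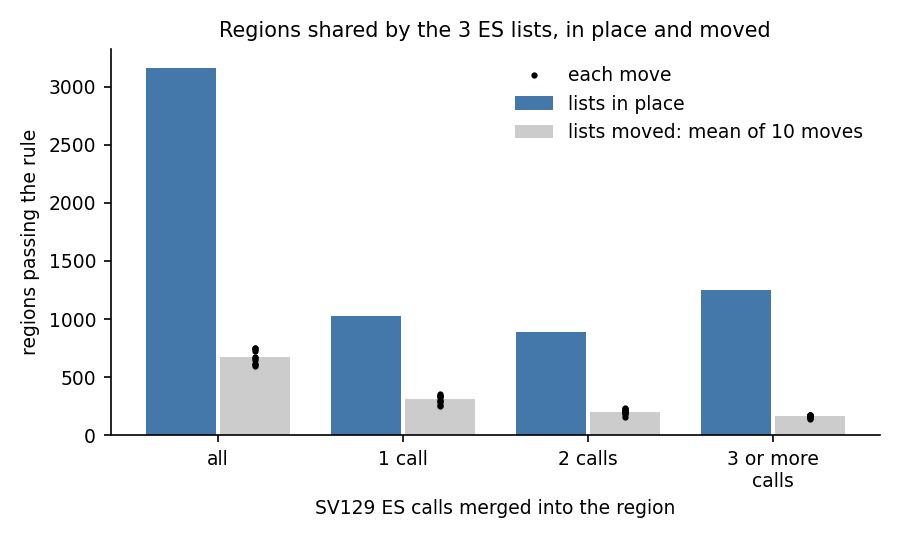
Number of SV129 ES regions that pass the rule (vertical axis) for all regions and by the number of SV129 calls merged into the region (horizontal axis). Blue bars are the lists in place, grey bars the mean of 10 moves and points the single moves, which for all regions sit between 600 and 749 against 3163 in place.

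The calls of the 3 lists often lay close together, in regions chosen for their overlap. Of 7490 SV129 calls in shared regions, 670 had a WT centre on the same base and 522 a cKO centre. In 1237 shared regions (39.1%) both a WT and a cKO call had its centre within 20 bp of an SV129 centre, and in 2335 (73.8%) at least 1 of them did. The smaller of the overlaps with WT and cKO had a median of 105 bp and was 75 bp or more in 2006 regions (63.4%). Just inside the rule, 209 regions (6.61%) rested on an overlap of 10 bp or less, and just outside it 291 regions missed 1 of the C57BL6 lists by 10 bp or less. Over all 476536 SV129 ES calls, the centre of the nearest WT call was within 20 bp for 16924, against 4525 on average in the moved lists (3.74 times). The same count for cKO was 17255 against 4659 (3.7 times). The moved lists also rose at distance 0, to 2667 for WT against 1405 and 1515 in the bins beside it, which was not tested further. Between 83.2% and 84.6% of ES call starts lie on a grid of 5 bp. Away from the centre the excess fell: at 100 bp the WT count of 1334 was 1.02 times the moved mean of 1308, and the cKO count of 1743 was 1.33 times.

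**Figure D2:**
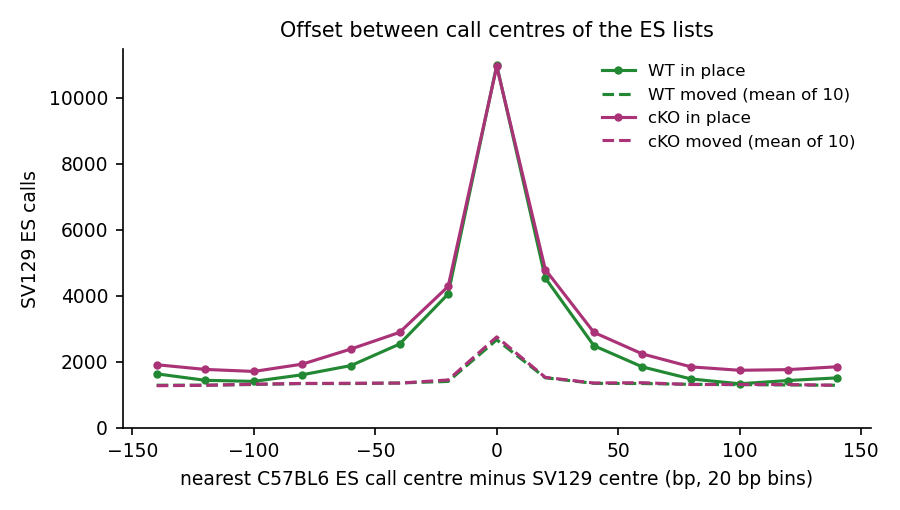
Signed distance from each SV129 ES call centre to the nearest WT (green) or cKO (purple) ES centre, in 20 bp bins (horizontal axis, bp), and the number of calls in each bin (vertical axis). Solid lines are the lists in place and dashed lines the mean of 10 moves; the central bin holds 10981 WT calls against 2667 moved and 10946 cKO calls against 2755.

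Shared regions were longer than those of SV129 alone, and a longer region can meet more calls. Their median length was 182 bp (quartiles 150 and 205 bp, longest 555 bp), against 150 bp for the 228013 regions found at ES in SV129 alone and in no intact sperm list. They covered 0.615 Mb. Single calls made up 32.5% of the shared and 51.0% of the SV129-only regions, and 6.1% against 0.671% were longer than 300 bp. Each list gave a similar number of calls to a shared region: 2.37 ± 1.41 from SV129, 2.31 ± 1.37 from WT and 2.22 ± 1.24 from cKO (mean ± SD over 3163 regions).

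The choice did not use 7 of the nucleosome lists, those of MS and RS in each background and that of cKO sperm. In these lists the shared regions had calls 3.83 to 5.14 times as often as regions of SV129 alone. The highest share was in SV129 RS, where 758 of 3163 had a call, or 24.0% (22.5 to 25.5), against 6.61% of all SV129 ES regions and 5.09% of the SV129-only ones. In WT RS the share was 18.5% (17.2 to 19.9), against 4.59% of all and 3.6% of SV129-only regions. In cKO RS it was 14.6% (13.4 to 15.9), against 3.92% and 3.13%. These 3 RS shares followed the order SV129, WT, cKO. The cKO RS list was the shortest, with 205827 calls, and its lower share cannot be told apart from list length. The WT RS list was longer than that of SV129, 252705 calls against 228634, and had the lower share of the pair; depth is unknown.

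In the meiotic fraction the order was another. WT MS had calls at 21.3% of shared regions (19.9 to 22.8), against 6.23% of all SV129 ES regions, and cKO MS at 19.2% (17.9 to 20.6), against 6.13%. SV129 MS had calls at 14.0% (12.8 to 15.2), against 4.13%. The intervals hold counting error alone and the same regions were scored in all 3 lists, so they do not compare backgrounds. SV129 MS had the lowest share. It was also the shortest of the 3 MS lists, with 194106 calls against 318431 in WT and 308818 in cKO.

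Moving the shared regions themselves by the same 10 distances left a call at 1.62% (WT RS) to 3.33% (WT MS) of them on average. The share in place was 10.8 times the moved one in SV129 RS, 11.4 times in WT RS and 7.57 times in cKO RS, and 6.07 to 7.35 times in the 3 MS lists. Regions of 2 ES lists lay between the shared and the SV129-only ones in each of these lists: for SV129 RS, 9.94% of the 17501 regions of SV129 and WT and 11.2% of the 20467 regions of SV129 and cKO had a call. The difference was also present at equal length: among regions of exactly 1 call, all 150 bp long, SV129 RS met 16.8% (14.7 to 19.2) of 1028 shared and 4.55% of 116248 SV129-only regions. For WT MS these shares were 18.1% and 4.65%. Regions whose C57BL6 centres were both within 20 bp of an SV129 centre had a call in SV129 RS more often than the other shared regions, 28.0% (25.5 to 30.5) against 21.4% (19.6 to 23.3). They were also longer, with a median of 198 bp against 170 bp, and this comparison was not made at equal length. In SV129 MS the order was the other way, 13.4% against 14.3%, while in the remaining lists the regions with close centres had the higher share.

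**Figure D3:**
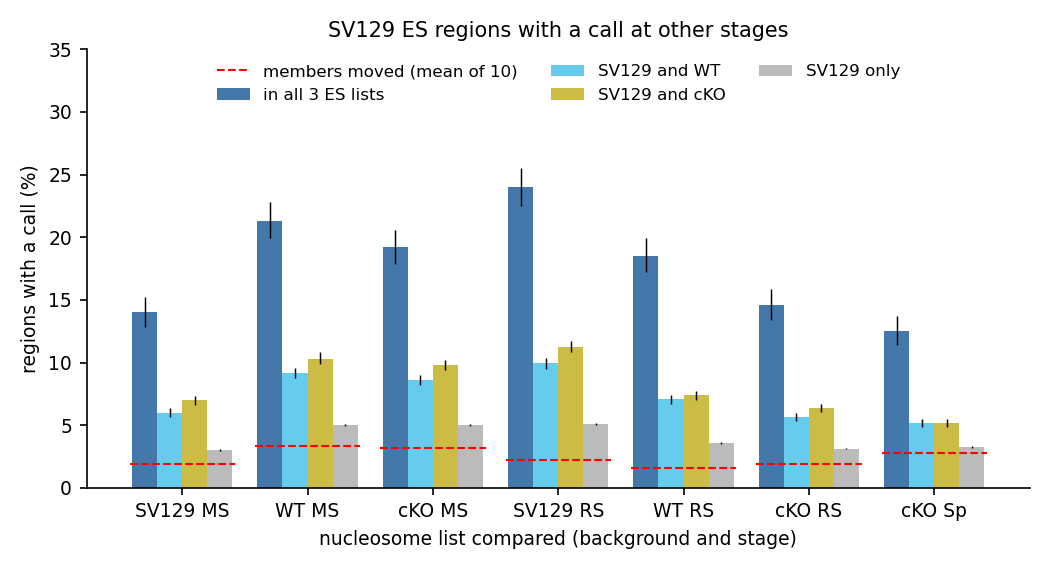
Share of SV129 ES regions with a nucleosome call in each of the 7 lists that the choice did not use (vertical axis, percent; horizontal axis, background and stage), for regions in all 3 ES lists, in 2 of them and in SV129 alone. Error bars are Wilson 95% intervals and red dashed lines the shared regions moved (mean of 10 moves); blue bars run from 12.5% in cKO Sp to 24.0% in SV129 RS, above the grey bars in all 7 lists.

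Counted over the 7 lists, 1542 shared regions (48.8%) had a call in at least 1 and 1621 (51.2%) in none, against 81.7% with none among SV129-only regions. Calls in 4 or more lists were seen at 407 shared regions (12.9%) and at 1.18% of SV129-only ones. Calls in all 7 were seen at 46 (1.45%) and at 139 (0.061%). A call in some MS list and some RS list was met by 625 shared regions (19.8%), in MS lists only by 348 and in RS lists only by 466. No MS or RS call was found at 1724 (54.5%), against 84.0% of SV129-only regions. All 3 MS lists had a call at 272 shared regions and all 3 RS lists at 200.

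**Figure D4:**
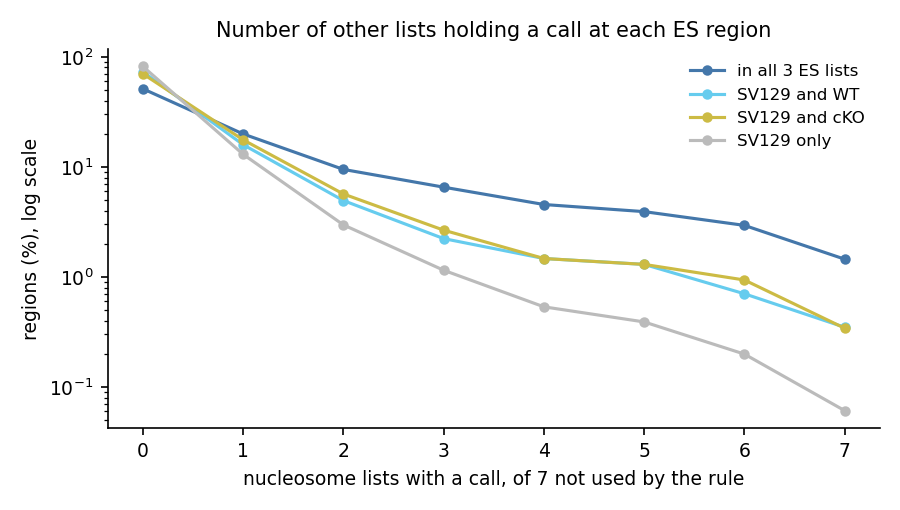
Percent of regions (vertical axis, log scale) by the number of lists with a nucleosome call among the 7 lists not used in the choice (horizontal axis), for regions in all 3 ES lists, in 2 of them and in SV129 alone. Among shared regions 51.2% had none and 1.45% all 7; among SV129-only regions 81.7% and 0.061%.

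Sperm without Gcn5 had a call at 396 shared regions, or 12.5% (11.4 to 13.7), against 4.05% of all SV129 ES regions, 3.25% of SV129-only regions and 2.81% of the shared regions moved. By the choice of the regions no call of either intact sperm list falls there. The cKO sperm list is 28.7 times as long as the SV129 one, so that a call in the former and none in the latter cannot be told apart from list length. Among single calls the share was 7.1% (5.69 to 8.84) of shared and 3.08% of SV129-only regions, 2.31 times as high. The most common score marks 70.2% of the cKO sperm calls, and without those calls the shares were 7.43% and 1.37%. The cKO sperm calls fell mostly on shared regions that already had a call earlier: 293 of the 1439 with an MS or RS call had one, 20.4% (18.4 to 22.5), against 103 of the 1724 without, 5.97% (4.95 to 7.19). Among SV129-only regions the same shares were 5.47% and 2.82%.

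Open sites were more frequent too. A subnucleosome peak of an MS or RS list lay on 447 shared regions (14.1%), against 2.45% of SV129-only regions. WT RS peaks met 10.6% (9.6 to 11.7) and SV129 RS peaks 8.44% (7.52 to 9.46) of shared regions, against 1.76% and 1.01% of SV129-only regions. Peaks of cKO RS met 1.61% (1.23 to 2.11), against 0.134%, but that list held 4038 peaks compared with 28935 in SV129 RS and 56048 in WT RS. At ES itself, 40 shared regions (1.26%) met a peak of some background, 13 of them peaks of all 3, against 0.0281% of SV129-only regions. Sperm peaks of any background met 84 (2.66%). Nucleosome calls and open-site peaks from different groups thus fell on the same bases at some of these regions; no source used here says how the authors divided fragments between the classes.

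Shared regions lay at gene starts more often than ES regions of SV129 alone. The ES regions with an intact sperm call, which the choice set aside, were not compared here. Of all 3163, 242 (7.65%, 6.78 to 8.63) had their centre within 500 bp of either end of a protein-coding gene, 53.2% in the rest of a gene and 39.1% outside genes. The SV129-only regions had 2.88%, 48.6% and 48.5%, and the shared regions moved 2.48%, 49.5% and 48.0%. Exons and introns are not resolved in the gene table used. On the 3057 shared regions of chromosomes 1 to 17 and 19, where gene starts with strand could be used, 210 (6.87%, 6.03 to 7.82) lay within 500 bp of a start, against 1.77% of SV129-only regions, and 221 genes had their start that close to a shared region. Only 30 (0.981%) lay within 500 bp of a gene's finish and not of a start, against 0.994% of SV129-only regions. Of the 210, 142 were centred at or downstream of the start and 68 upstream. The 4 fullest 100 bp bins were centred at -50, 50, 150 and 250 bp from the start, with 33, 28, 38 and 32 shared regions, and no single position stood out among them. More than 50 kb from any of the starts used lay 42.5% of shared and 49.6% of SV129-only regions. Starts were known for 16457 of the 20665 genes, so a region can lie closer to a start that was not counted.

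**Figure D5:**
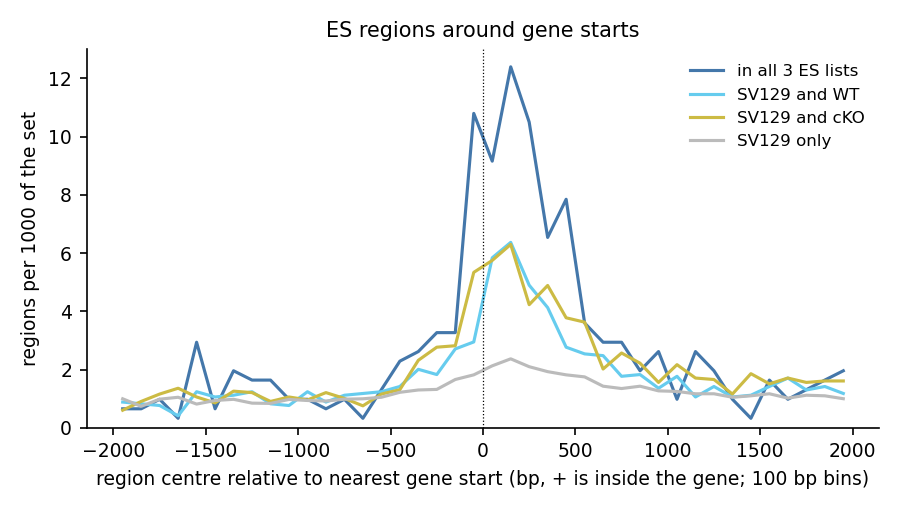
Regions per 1000 of each set (vertical axis) by the distance of the region's centre from the nearest gene start in 100 bp bins (horizontal axis, bp; positive is inside the gene). Lines are regions in all 3 ES lists, in 2 of them and in SV129 alone; the line for all 3 lists reaches 12.4 at 150 bp.

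Regions at starts carried calls at other stages far more often than the rest. Of the 210 shared regions at starts, 79.0% (73.0 to 84.0) had a WT MS call, 74.8% (68.5 to 80.2) an SV129 MS call and 73.3% (67.0 to 78.9) an SV129 RS call. Of the 3900 SV129-only regions at starts, these lists met 47.6%, 40.6% and 36.7%. The share in cKO RS was lower than in the other RS lists, 41.0% (34.5 to 47.7) against 62.9% (56.1 to 69.1) in WT. Among SV129-only regions at starts it was 15.5% against 33.1%. The cKO RS list is the shortest RS list, and its lower shares cannot be told apart from list length. A cKO sperm call was met by 32.9% (26.9 to 39.5) of shared and 13.9% of SV129-only regions at starts. A subnucleosome peak of WT MS lay on 62.4% of shared regions at starts and one of WT RS on 51.9%. Away from starts, shared regions outside genes had an SV129 RS call in 21.4% (19.1 to 23.8) and those in gene bodies in 20.2% (18.4 to 22.3) of cases.

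CpG dinucleotides are the step at which mammalian DNA is methylated, and they cluster in the CpG islands of many promoters. Promoter windows with a shared region held more of them than all windows, and so, to a lesser degree, did windows open in round spermatids without a shared region. GC content over the 300 bases was 66.7 ± 7.18% (mean ± SD) in the 123 windows, against 56.5 ± 11.6% in all 20063 and 60.0 ± 8.95% in the 1993 windows with an SV129-only region and no shared one. The number of CpG per 100 bases was 9.16 ± 3.81, 5.24 ± 4.33 and 5.91 ± 4.06. In the 9344 windows that met an intact RS subnucleosome peak and no shared region it was 7.64 ± 3.78. The ratio of observed to expected CpG was 0.796 with a shared region and 0.763 in these open windows. ATAC-seq libraries can over-represent DNA of some base compositions, and the part this has in the values was not tested. A peak of an intact RS subnucleosome list met 70.7% of the 123 windows and 47.0% of all windows. GC content was 61.8 ± 8.91% in the 9344 open windows without a shared region and 67.8 ± 5.99% in the 87 open windows with one. Those 87 windows held 9.88 ± 3.25 CpG per 100 bases, and their ratio of observed to expected CpG was 0.852.

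Short promoter motifs were searched by their letters on both strands. GGGCGG, the GC box read by Sp1 family factors, occurred in 71.5% of the 123 windows, in 66.4% of the open windows without a shared region and in 47.0% of all. TATAAA, the TATA box, occurred in 2.44%, 5.73% and 12.7%. CCAAT, read by NF-Y, occurred in 38.2%, 41.3% and 38.1%. Not all of the 123 windows were open. In the 87 open windows with a shared region the GC box, TATA box and CCAAT occurred in 81.6%, 1.15% and 43.7%. The SV129-only windows had the GC box in 56.0% and the TATA box in 8.38% of cases. TGACGTCA, the full cAMP response element read by CREB family factors, among them the spermatid activator CREM, occurred in 2 windows (1.63%), in 4.21% of the open windows and in 2.3% of all. GGGCGG is made of G and C only and the windows differ in GC content, as given above; a match is a description of the sequence.

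Of 20665 protein-coding genes, 299 (1.45%) had a shared region at an end and 1618 (7.83%) had one inside. The genes with the most were long: Maml3, a coactivator of Notch, Rbfox3, a splicing factor of neurons, and Sorcs2, a sorting receptor, held 5 each, or 1.2, 1.19 and 1.31 per 100 kb of gene. Genes with 4 included Clec16a, a membrane protein that acts in mitophagy, at 2 per 100 kb, Zfp423, a zinc finger transcription factor, at 1.33, and Nbea, a vesicle trafficking protein of neurons, at 0.716. Camta1, Csmd2 and Atrnl1 also held 4. Over all genes the density was 0.194 per 100 kb of gene, and over the chromosomes 0.129 per 100 kb.

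The counts over gene lists are read against all genes, of which 1.45% had a shared region at an end and 7.83% one inside. None of the 5 protamine and transition protein genes had one at an end or inside. The same held for the 13 testis histone variant genes found and the 39 meiotic genes. Some SV129 ES region lay at an end of 4 of the 5, 5 of the 13 and 20 of the 39, against 41.4% of all genes. The upper Wilson 95% limits of a share of 0 are 43.4%, 22.8% and 8.97% for these lists. All are above the 7.83% of genes with a region inside, so no difference from all genes was detectable. A longer gene can hold more regions, and 7.83% is not adjusted for length. Median gene length was 0.721, 0.735 and 35.5 kb in these lists, against 17.5 kb over all genes. Of 58 genes for spermatid structure and function, 2 (3.45%) had a shared region inside, Odf2, a protein of the outer dense fibres of the tail, and Dnah17, an axonemal dynein chain, and none had one at an end. None of 39 Hox genes and none of 16 blood and immune markers had one. Their upper limits, 8.97% and 19.4%, are also above 7.83%, so no difference from all genes was detectable here either. Median gene length in these lists was 3.74 and 8.78 kb.

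Among 27 subunit genes of SAGA and ATAC, 1 (3.7%) had a shared region at an end, Taf9, and 1 inside, Trrap, the large scaffold that recruits acetyltransferases. The Taf9 region was chr13:100650869-100651046, the same region as shown above for Rad17. It lay inside Rad17, centred 103 bp into that gene, and counts for Taf9 because its centre was 385 bp from the Taf9 start. It had a call in 6 of the 7 lists, all but cKO sperm. Of 33 other chromatin regulators of spermiogenesis, Chd5 and Chd4, both nucleosome remodellers, had one inside (6.06%). Of 43 housekeeping genes, Rps6, a ribosomal protein, had one 343 bp into the gene (chr4:86856922-86857126, calls in 3 of 7 lists), and Ywhaz, a 14-3-3 protein, had one inside, so that 4.65% of the list had one inside.

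Of 83 developmental transcription factor genes, 5 (6.02%) had a shared region inside, Gli2, Gata4, T, Cdx1 and Pax5, and 1 (1.2%), Cdx1, had one at an end. Both shares are near those of all genes, 7.83% and 1.45%. Of 21 Sertoli and Leydig cell markers, 4 (19%) had one inside, against 7.83% of all genes. They were Vim, an intermediate filament, Wt1 and Gata4, transcription factors, and Lhcgr, the luteinising hormone receptor. The list held 0.651 per 100 kb of gene, against 0.194 over all genes. Housekeeping (0.338, from 2 shared regions), developmental factor (0.281, from 6) and epididymal genes (0.395, from 1) also lay above 0.194. Spermatid genes (0.0912, from 3), SAGA and ATAC genes (0.0831, from 1) and the other chromatin regulators (0.128, from 2) lay below. Shares and densities resting on so few genes or regions, such as the 4 marker genes, are uncertain. Their differences from all genes were not tested. The Vim region (chr2:13574717-13574866) lay 481 bp into the gene and had calls in all 3 MS lists and SV129 RS. Of 12 epididymal markers, Lcn5, a lipocalin of the epididymis, had one inside (8.33%). These 3 marker lists stand for cells other than germ cells; the share of such cells in each fraction was not tested. Of 50 synaptic adhesion and neuronal genes, 18 (36%) had one inside, among them Ptprd and Dlg2, and none at an end. Their median length was 1137 kb, and per length they held 0.0445 shared regions per 100 kb, less than the 0.194 of all genes.

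Named by the number of other lists with a call and then by how closely the ES centres lay, the first 10 of the 46 regions found in all 7 other lists show the range of settings. Counted by the outermost ends in the gene table, 23 of the 46 lay within 500 bp of a gene end, 19 in gene bodies and 4 outside genes; a region at an internal start of a gene counts as gene body here. The Kif1b call (chr4:149307572-149307721) was a single SV129 call with its WT and cKO centres on the same base, 51 bp into the gene, and MS and RS subnucleosome peaks of both intact backgrounds overlapped it. A region of 200 bp at chr4:105863162-105863361 had its WT and cKO centres on an SV129 centre as well, but lay 452718 bp from the nearest gene end, that of Usp24, a deubiquitinase. The region chr19:53806812-53807016 lay inside Rbm20, a splicing regulator of heart muscle, 60169 bp from its nearer end.

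The region chr6:29747967-29748308 lay 12641 bp into Smo, the signal transducer of the Hedgehog pathway, and met subnucleosome peaks of 10 of the 12 lists, those of all 3 ES lists included. Near internal starts, and so counted as gene body, lay chr3:126597217-126597421 in Camk2d, a calcium-dependent kinase, centred 368 bp from a start, and chr16:94313327-94313536 in Hlcs, which attaches biotin to carboxylases, 131 bp from a start. The region chr7:7278077-7278486, merged from 6 SV129 calls, lay 7 bp from the start of Vmn2r29, a vomeronasal receptor gene of a large family. Inside Oxgr1, a receptor for oxoglutarate, was chr14:120032329-120032631. Outside genes were chr8:10128227-10128471, 25562 bp before Myo16, and chr4:146067347-146067861, 29708 bp before Zfp987, a member of a zinc finger gene cluster. In families of near-identical copies such as Vmn2r29 and Zfp987, the sources used here do not say how reads that match several copies were assigned, so these positions are uncertain.

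Shared regions were spread over all 19 autosomes. Their number per Mb ran from 0.817 on chromosome 14 to 1.79 on chromosome 11, and their share of the SV129 ES regions from 0.903% on chromosome 14 to 1.3% on chromosome 8. The median distance to the nearest other shared region was 146.7 kb, and 142 (4.49%) had another within 1 kb. The fullest 100 kb window, chr5:15600001-15700000, held 5 and has Speer4d, a testis-expressed gene of a multicopy family. The window chr5:14900001-15000000, with Speer4e, held 4. The note on near-identical copies holds for these as well.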

How the data were processed

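ATAC-seq lists of 34 libraries in 12 groups were used, 24 lists in all, 1 of nucleosome calls and 1 of subnucleosome peaks per group. The submitters' processing notes name STAR 2.5.2a, MACS2 2.1.0.20140616 and GRCm38 (mm10) without their role; fragment classes, calling and the joining of replicates are not given in the sources used here. The score that the authors deposited in the fifth column has no stated meaning and served only to leave out each list's most common value in an alternative. Deeper libraries can give longer lists, and depth is unknown.

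Reactions held 100000 cells (MS, Sp) or 200000 (RS, ES), Tn5 at 2.5 and 5.0 units and 12 PCR cycles, per the labels' protocols. SV129 ES calls were merged where they overlapped, overlap counted from 1 bp, and lists moved by 10 fixed distances that wrap at chromosome ends. Wilson 95% intervals were used, with no test. Genes and promoters came from RefSeq tables of GRCm38.p6; strand matched for 16457 of 20665 genes (79.6%), and promoters of chromosome 18 were not used. Base composition of whole regions was not analysed here, as no genome was used. The interval functions were tested on simulated data. Python 3.11.15, numpy 2.4.6, pandas 2.3.3 and matplotlib 3.10.9 were used.

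The regions and the 13 gene lists were chosen with earlier results of these data known. Named were, chromosome 18 left out, the 10 regions with calls in most of the 7 other lists (ties by ES centre distance), regions at ends of listed genes, and genes with most regions; Cdx1, genes named for a region inside, the fullest windows and 3 of the 5 sequences were named after their values were seen. Alternatives to the overlap, the scores, the merging, the base list, the sperm lists and the window at gene ends were tried.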

Additional observations from a re-analysis of the deposited data

How the results depend on the processing

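No paired analysis was possible because each group has 1 pooled list whose columns carry no replicate; replicates could not be left out either. Regions mostly repeat-masked were to be left out, which was not run, as no genome was used. The cause of the changes below was not tested, beyond fewer bases or calls being counted.

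The number of shared regions was 2006 with at least 75 bp shared (moved lists 230.7 on average), 1237 with centres within 20 bp (42.5), 1997 without each list's most common score (281.5) and 1028 for single calls (309.8). It was 3151 with WT and 3174 with cKO as the base list, 3703 with no sperm list left out and 2767 with cKO sperm left out too.

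Shares of shared regions with a nucleosome call are given in the order SV129, WT and cKO MS, SV129, WT and cKO RS, cKO Sp. With 75 bp shared they were 11.9%, 18.5%, 16.0%, 21.2%, 15.9%, 12.5% and 10.3%. For single calls they were 11.8%, 18.1%, 15.4%, 16.8%, 12.3%, 9.34% and 7.1%. Without the compared list's most common score they were 12.1%, 17.7%, 15.9% and 20.6% in the first 4 lists, 10.5% in cKO RS and 7.43% in cKO Sp. Added after seeing the data, the shares without regions at gene starts were 9.65%, 17.2%, 15.6%, 20.5%, 15.3%, 12.8% and 11.1%. Those for centres within 20 bp, likewise added later, were 13.4%, 24.2%, 21.7%, 28.0%, 24.7%, 19.7% and 17.7%. Also added was leaving out regions over an ES subnucleosome peak, which left 3123. In all 49 shares of these settings and the one reported, shared regions lay above SV129-only ones, by 2.31 to 7.18 times.

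With 75 bp shared, subnucleosome peaks met 6.04%, 6.39%, 0.601% and 1.3% (SV129 MS, RS, ES, Sp), 6.99%, 8.6%, 0.443% and 0.411% (WT), and 3.19% and 1.01% (cKO MS, RS). At gene ends within 1000 bp lay 11.3%.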

Other observations

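Of 917 miRNA hairpins on chromosomes 1 to 19 in the RefSeq table, 87 met some SV129 ES region and 3 a shared region. Shared regions were 1.16% of the SV129 ES regions. Hairpins were not compared with moved positions, so whether 3 is many or few was not tested.

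Among the 40 shared regions with a subnucleosome peak in an ES list, 32 met a peak of SV129 ES, 24 of WT ES and 19 of cKO ES. One of those with peaks of all 3 was chr2:57629532-57629846, outside genes and 258970 bp from Gpd2, which had nucleosome calls in all 3 MS lists and in no RS or cKO sperm list. Another was chr2:181918612-181918796, 27751 bp from Gm40035, with subnucleosome peaks in 10 of the 12 lists. Both were named after their values were seen.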
